A study of Mus musculus with 4 samples.

Results

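Diabetic muscle with and without the transcription factor KLF15 was compared across genes. The comparison set 1 array of gastrocnemius, a calf muscle, from mice lacking KLF15 in skeletal muscle only (KO) against 1 array from wild-type mice (WT), both given streptozotocin (STZ). These are 2 of the 4 arrays of the study, chosen by their titles, and the other 2 come from WT and KO mice given vehicle. STZ kills the insulin-producing cells of the pancreas. Per the labels' protocols it was injected into the abdomen at 50 mg/kg on 5 consecutive days in 50 mM sodium citrate of pH 4.5, the vehicle groups received the citrate, and muscle was collected after 3 weeks. All groups share the tissue, the schedule and the citrate. The sources used here do not give the Cre driver, the age or sex of the mice, or the number of animals behind an array. With 1 array per group no test was possible, no error between animals can be given, and higher or lower describes these arrays alone.

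KLF15 is a zinc-finger factor of the Kruppel-like family that binds GC-rich and CACCC-type elements. In muscle it is known for switching on enzymes that break down branched-chain amino acids and for favouring the use of fat, and glucocorticoids and fasting raise it. Loss of insulin mobilises fat and amino acids and wastes muscle, which is the setting in which the genotypes are compared here.

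The files hold 1 linear intensity per transcript cluster, and a gene was read by its brightest cluster. Differences are of log2(intensity + 3.69), which shrinks the change of dim genes, and are KO STZ minus WT STZ unless vehicle is named. Of 22180 genes, 13258 had a mean level over the 4 arrays above the median of all clusters, an intensity of 5.81, and are called measured. The array medians ran from 5.73 to 5.96. Percentile 95 was 179 in KO STZ and 207 in WT STZ, the lowest and the highest of the arrays. The labelled tissue was borne out by its markers, with Acta1, the skeletal muscle actin, at 8473 in KO STZ against 7545 in WT STZ and Ckm, the muscle creatine kinase, at 7460.2 in KO STZ against 7737 in WT STZ. The Y-linked gene Eif2s3y read 87.1 in KO STZ against 95.4 in WT STZ, and 103 in KO against 96.9 in WT under vehicle, and Xist lay below the level filter. The arrays give only their number as a guide to precision.

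Klf15, the deleted gene, read 16.04 in KO STZ against 72.1 in WT STZ, and 19.8 in KO against 50.5 in WT under vehicle. Both KO arrays lay below both WT arrays, and KO STZ stood at 22.2% of WT STZ. How many of all measured genes keep the genotypes apart in this way was not counted, here and below. The log2 difference was -1.94 under STZ and -1.20 under vehicle. The sources used here do not say whether its 1 cluster covers the deleted part, so the signal left in KO cannot be assigned to fibres or to other cells of the muscle. In such bulk samples fewer cells of a type and less RNA per cell cannot be told apart, here and below.

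Most of the large differences lay on the lower side of KO. At 2-fold, 38 genes were lower (0.287% of measured genes) and 7 higher (0.0528%). At 1.5-fold, 372 were lower (2.81%) and 112 higher (0.845%), so that 76.9% of the 1.5-fold genes were lower. That share was 60.9% after quantile normalization and 65.04% with the level trend removed. Between the vehicle arrays 0.0754% were 2-fold lower and 0.0226% higher, and the 1.5-fold shares were 0.777% lower and 0.581% higher. In all 38 genes that were 2-fold lower, WT STZ was the highest of the 4 arrays, and in 30 KO STZ was the lowest. Selection on these 2 arrays favours such an order. Over all measured genes WT STZ was highest in 4264 and KO STZ lowest in 4444.

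The difference moved with the level of a gene. In 10 bins of equal size the median ran from 0.036 in the dimmest to -0.17 in the brightest, and over all measured genes it was -0.048. Between the vehicle arrays the brightest bin had a median of -0.063. Among the 7212 genes above level percentile 75 the STZ median was -0.11, 68.6% lay below 0 and 4.08% were 1.5-fold lower. Every list count below is to be read beside these shares and the 2.81% lower and 0.845% higher of all measured genes. The lists were chosen with earlier results of these data known, so a list share above these describes the list and lends no support. Most metabolic and contractile genes are bright in muscle, so most list medians are given beside values from quantile normalization and from removal of the level trend. The part of a technical difference between the arrays in this shift was not tested.

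**Figure D1:**
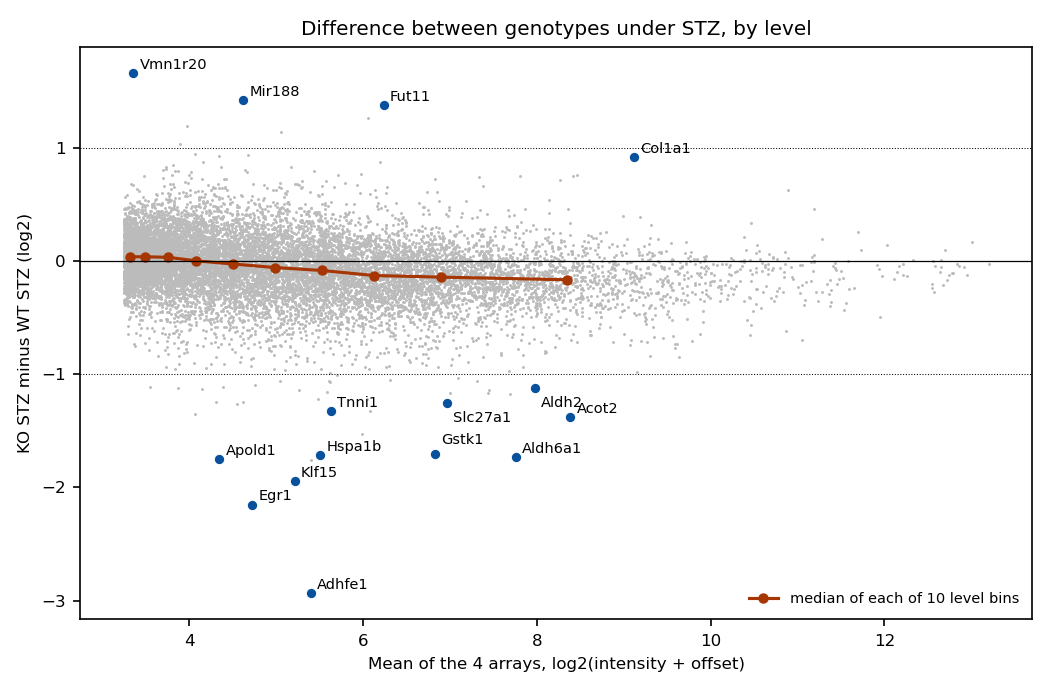
Each grey point is 1 measured gene, with the mean log2 level over the 4 arrays on the x axis and the log2 difference KO STZ minus WT STZ on the y axis; dotted lines mark 2-fold and blue points are named genes. The orange bin medians run from 0.036 at the dim end to -0.17 at the bright end, and Adhfe1 lies lowest at -2.93.

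Under both treatments KO was at least 2-fold lower in Adhfe1, Aldh6a1, Gstk1 and Klf15 itself. For Aldh6a1, Gstk1 and Bcat2, the last of which encodes the first enzyme of branched-chain amino acid breakdown, the promoter from RefSeq (GRCm38.p6) is shown, since KLF factors bind such proximal elements and these genes stand together on the lower side. Bcat2 stood at -1.06 under STZ and -0.64 under vehicle, so it was not 2-fold lower under both. The promoter set used here has no entry for Adhfe1. Each window runs from 250 bases before to 50 bases after the start. Capitals mark CACCC and CCGCCC, the short cores searched on both strands, so GGGTG and GGGCGG are the same cores on the other strand.
Aldh6a1 (chr12:84450975-84451274, minus strand): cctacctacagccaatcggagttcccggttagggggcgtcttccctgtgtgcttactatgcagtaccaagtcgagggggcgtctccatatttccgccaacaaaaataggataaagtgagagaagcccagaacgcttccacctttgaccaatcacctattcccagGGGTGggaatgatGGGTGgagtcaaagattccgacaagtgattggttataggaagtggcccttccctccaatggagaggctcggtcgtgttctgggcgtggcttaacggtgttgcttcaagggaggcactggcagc
Gstk1 (chr6:42245685-42245984, plus strand): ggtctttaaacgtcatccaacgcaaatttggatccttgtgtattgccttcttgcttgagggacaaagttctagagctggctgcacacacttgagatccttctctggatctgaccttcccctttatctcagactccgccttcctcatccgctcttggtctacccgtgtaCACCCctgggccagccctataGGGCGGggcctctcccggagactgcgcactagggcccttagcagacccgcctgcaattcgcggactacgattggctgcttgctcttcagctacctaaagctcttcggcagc
Bcat2 (chr7:45569903-45570202, plus strand): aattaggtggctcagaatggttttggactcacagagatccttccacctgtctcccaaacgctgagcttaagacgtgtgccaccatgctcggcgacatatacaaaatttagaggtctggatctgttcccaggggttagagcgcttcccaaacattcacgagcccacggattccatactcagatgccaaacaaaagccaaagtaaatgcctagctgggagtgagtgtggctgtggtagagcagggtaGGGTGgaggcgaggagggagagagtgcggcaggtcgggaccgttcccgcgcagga
The core CACCC began at -86 and -73 from the Aldh6a1 start, at -82 from that of Gstk1 and at -5 from that of Bcat2. A CCGCCC core lay at -61 from the Gstk1 start, and Aldh6a1 and Bcat2 had none in these windows. A further RefSeq start of Aldh6a1 had 1 CACCC and one of Bcat2 had 0. Such cores are common: 64.3% of 13111 promoters of measured genes held CACCC and 59.3% CCGCCC. Among 304 promoters of genes at least 1.5-fold lower in KO STZ the shares were 59.9% and 58.2%. Among the 28 promoters of genes 1.5-fold lower under both treatments they were 75% and 46.4%. The matches describe the letters only.

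Breakdown of branched-chain amino acids starts with an aminotransferase and the branched-chain keto acid dehydrogenase complex. All 7 measured genes of these steps lay below 0 in KO STZ, 3 of them at least 1.5-fold, with a median of -0.38 (-0.15 under quantile normalization and -0.19 with the level trend removed); 58.1% of all measured genes lay below 0. Bcat2, the mitochondrial aminotransferase, read 32.4 in KO STZ against 71.4 in WT STZ, and 32.8 in KO against 53.4 in WT under vehicle. The KO arrays were alike and both lay below the WT arrays, of which WT STZ was the higher. Bckdhb, the E1 beta subunit, read 26.8 in KO STZ against 50.8 in WT STZ, and 21.5 in KO against 46.6 in WT under vehicle, a difference of -0.84 under STZ and -0.998 under vehicle. Dbt, the E2 core, stood at 93.3 in KO STZ against 169 in WT STZ (-0.83). Here too the genotypes did not overlap. Bckdha, the E1 alpha subunit, stood at -0.30, and Dld, the E3 subunit shared with other dehydrogenases, at -0.38. Bckdk and Ppm1k, the kinase that inactivates the complex and the phosphatase that activates it, stood at -0.29 and -0.22. Bcat1, the cytosolic aminotransferase, lay below the level filter, at 4.83 in KO STZ against 4.55 in WT STZ.

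Downstream, 17 of 18 measured genes of leucine, valine and isoleucine breakdown lay below 0, against 58.1% of all measured genes. Of the 18, 5 were at least 1.5-fold lower (27.8%, against 2.81%). The median was -0.47 (-0.27 under quantile normalization and -0.32 with the level trend removed). Aldh6a1, the methylmalonate semialdehyde dehydrogenase of valine breakdown, read 112 in KO STZ against 381 in WT STZ, and 129 in KO against 368 in WT under vehicle. KO STZ stood at 29.4% of WT STZ, and a second, dimmer cluster of the gene gave -1.62 against -1.74 for the brightest. On the leucine branch, Ivd, the isovaleryl-CoA dehydrogenase, stood at 53.00 in KO STZ against 95.4 in WT STZ (-0.81). Mccc2 and Mccc1, the subunits of methylcrotonyl-CoA carboxylase, stood at -0.85 and -0.58, and Auh, the next hydratase, at 0.014. Thus the carboxylase and the step before it were lower while the hydratase was level. On the shared route to succinyl-CoA, Mmut, the methylmalonyl-CoA mutase, read 79.9 in KO STZ against 156 in WT STZ, and 86.2 in KO against 149 in WT under vehicle, and Mcee, the epimerase before it, 69.6 in KO STZ against 129 in WT STZ, and 94.4 in KO against 91.6 in WT under vehicle. Mmut was lower in KO under both treatments, whereas Mcee stood at 0.042 under vehicle and -0.86 under STZ. Of the propionyl-CoA carboxylase genes, Pccb stood at -0.38 and Pcca at -0.019. The remaining members included Acat1 at -0.55, Echs1 at -0.54, Acadsb at -0.51 and Hibadh at -0.42.

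None of 20 measured genes for the breakdown of other amino acids was 1.5-fold apart either way under STZ. Among all measured genes 2.81% were lower and 0.845% higher, so none in a list of this size says nothing of it, here and below. Of the 20 genes 13 lay below 0, and the median was -0.22 (-0.084 under quantile normalization and -0.10 with the level trend removed). Aldh4a1, of proline breakdown, stood at -0.48 and Prodh, the proline dehydrogenase before it, at -0.25 at a dim 10.4 in KO STZ. Gpt2, the mitochondrial alanine aminotransferase, stood at 0.060, Got2 at 0.033, Glud1 at -0.33 and Glul, the glutamine synthetase, at -0.18. Of 18 measured amino acid transporters, 1 was 1.5-fold lower (5.56%, against 2.81% of all measured genes) and 0 higher. Their median was 0.037, and 0.12 under quantile normalization and 0.11 with the level trend removed. The lower one was Slc25a44, the mitochondrial branched-chain amino acid carrier, which read 33.9 in KO STZ against 59.1 in WT STZ, and 57.9 in KO against 54.1 in WT under vehicle, a vehicle difference of 0.091. Slc7a5, a plasma membrane carrier of large neutral amino acids, stood at -0.26.

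The largest difference of all was in Adhfe1, a mitochondrial iron-dependent dehydrogenase that oxidises 4-hydroxybutyrate. It read 11.3 in KO STZ against 111 in WT STZ, and 13.8 in KO against 102 in WT under vehicle. KO STZ stood at 10.2% of WT STZ, and the difference of -2.93 compares with -2.60 under vehicle. Aldh2, the mitochondrial aldehyde dehydrogenase, read 169.8 in KO STZ against 375 in WT STZ, and 182 in KO against 324 in WT under vehicle. Its dimmer cluster gave -0.60 where the brightest gave -1.13. Aldh1a1, the cytosolic retinal dehydrogenase, stood at -0.72 and at -0.084 under vehicle. Of 12 measured genes of hydroxyacid and aldehyde oxidation these 3 were at least 1.5-fold lower (25%, against 2.81% of all measured genes) and 0 higher. The list median was -0.27 (-0.22 under quantile normalization and -0.23 with the level trend removed), and D2hgdh, a hydroxyglutarate dehydrogenase, stood at -0.28. Among 12 glutathione transferases 2 were 1.5-fold lower (16.7%, against 2.81% of all measured genes). The median was -0.26 (-0.19 under quantile normalization and -0.20 with the level trend removed). Gstk1, the mitochondrial and peroxisomal kappa-class enzyme, read 58.3 in KO STZ against 199 in WT STZ, and 67.4 in KO against 181 in WT under vehicle. Gstm2, a mu-class enzyme with close relatives that may share probes, stood at 21.8 in KO STZ against 35.1 in WT STZ (-0.61). Gstp1, the brightest member, stood at -0.032. For Adhfe1, Aldh2 and Gstk1 both KO arrays lay below both WT arrays.

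**Figure D2:**
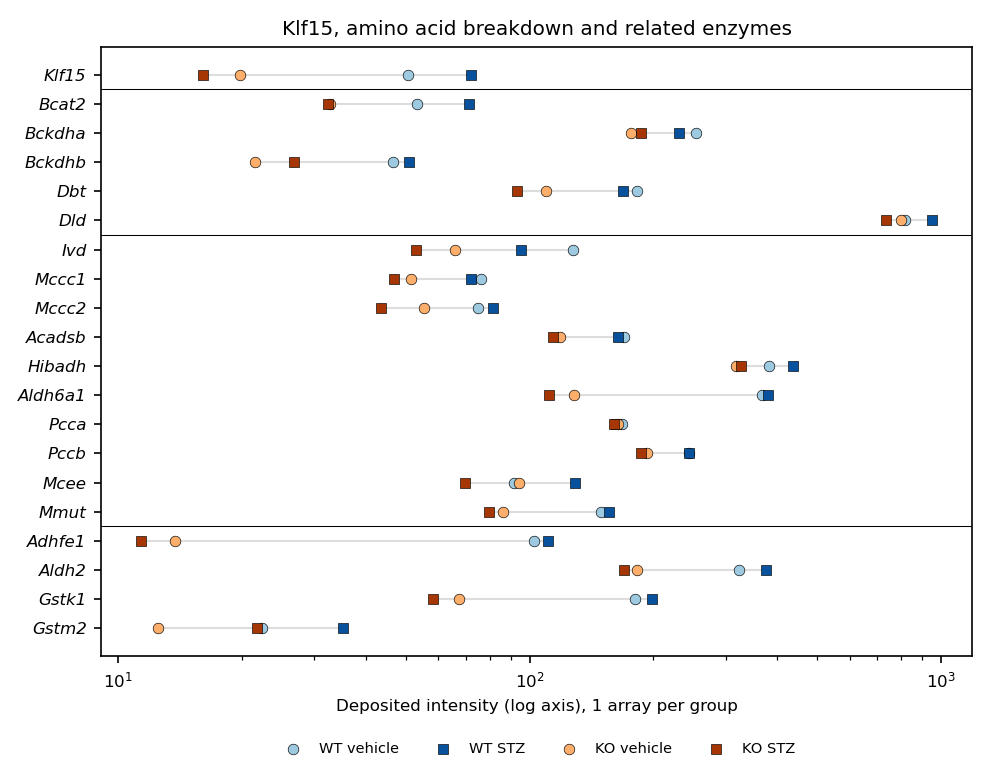
Deposited intensity on a log axis for Klf15, genes of branched-chain amino acid breakdown and related enzymes, with 1 point per array; circles are vehicle, squares STZ, blue WT and orange KO, and horizontal rules part Klf15, the entry steps, the downstream steps and other enzymes. Both KO points lie left of both WT points for all genes shown other than Pcca, whose points nearly coincide, and Mcee. The genes are a selection of mostly lower genes in KO STZ, which favours this order. Its share over all measured genes was not counted.

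In all, 32 genes passed 1.5-fold on the lower side under both treatments (0.241% of measured genes) and 8 at least 1.5-fold higher (0.0603%). In 3 genes (0.0226%) the directions were opposite. The pairs of arrays share no sample. The 32 lower genes had a median of -0.86 under STZ and -0.80 under vehicle, and 19 of them lay further below 0 under STZ. The 8 higher genes were Col1a1, Col1a2 and Col3a1, described below, and Sox4, Mir187, Mir188, Snord88c and Vmn1r20, of which Mir187 stood at 228 in KO STZ against 136 in WT STZ. Sox4 read 5.61 in WT vehicle and 4.62 in WT STZ, under the filter intensity of 5.81. It counted as measured only through its KO values, so its place among the 8 lends no support. Vmn1r20 in WT STZ lay under that intensity too. Beside those already named the lower genes included Pfkfb3, a glycolytic regulator enzyme, at 112 in KO STZ against 211 in WT STZ, Micu3, a regulator of the mitochondrial calcium uniporter, at 41.7 in KO STZ against 76.8 in WT STZ, and Pxmp2, a peroxisomal membrane channel, at 67.6 in KO STZ against 129 in WT STZ. Ostn, which encodes the secreted peptide musclin, read 45.9 in KO STZ against 83.3 in WT STZ, and 51.8 in KO against 117 in WT under vehicle. Its KO values were alike, and WT STZ lay below WT vehicle. Wnt4, a secreted signalling protein, stood at -0.88 (-1.04 under vehicle), and Kyat3, a kynurenine aminotransferase, at -0.73 (-0.65). Lin52 at -0.91, Rasd2 at -0.92, Lancl1 at -0.76 and Zfyve21 at -0.71 were also lower under vehicle, with -0.89, -0.90, -0.71 and -0.71. So were Fgfbp1, H2bc21, Ppp1cc and Zfp958, at -0.64, -0.61, -0.60 and -0.64 under STZ. Of the 372 genes 1.5-fold lower in KO STZ, 69.9% were also below 0 under vehicle, against 50.8% of all measured genes, and 234 (62.9%) lay within 1.2-fold between the vehicle arrays, against 81.6% of all measured genes.

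**Figure D3:**
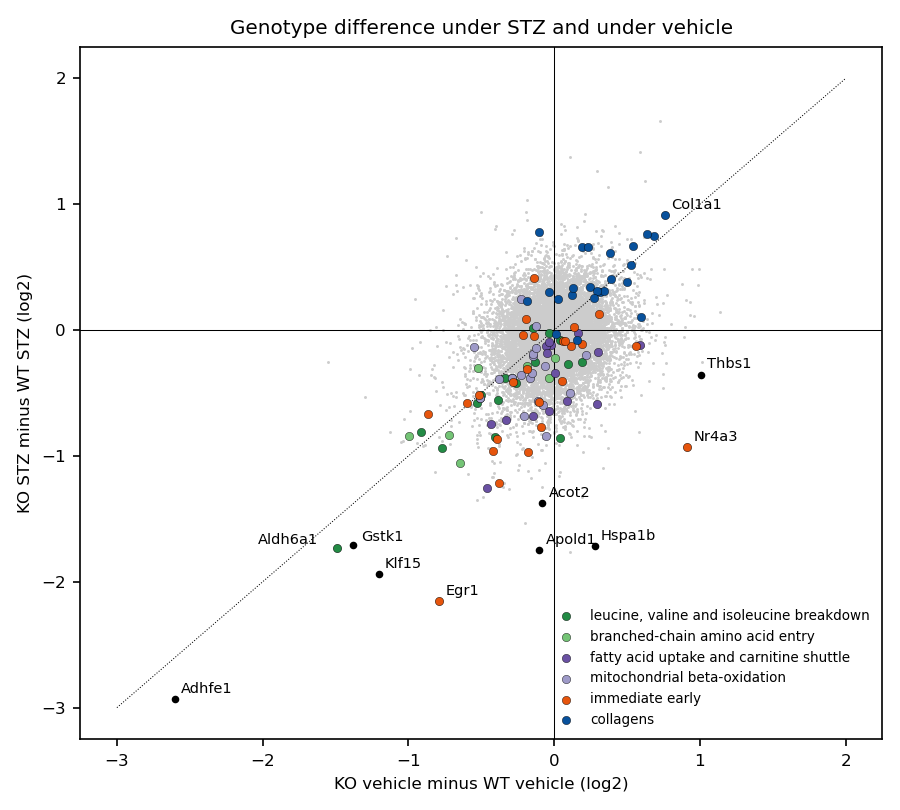
Each grey point is 1 measured gene, with the log2 difference KO vehicle minus WT vehicle on the x axis and KO STZ minus WT STZ on the y axis; coloured points are members of 6 lists, black points other named genes, and the dotted line marks equal differences. Adhfe1, Aldh6a1 and Gstk1 lie near the dotted line, Acot2 (-1.38 and -0.081) and Apold1 (-1.75 and -0.10) lie below it near 0 on the vehicle axis, and Nr4a3 stands at -0.93 and 0.91.

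Genes that bring fat into the fibre and its mitochondria were lower in KO STZ. All 15 measured genes of uptake and the carnitine shuttle lay below 0, against 58.1% of all measured genes and 68.6% of those above level percentile 75. Of the 15, 5 were at least 1.5-fold lower (33.3%, against 2.81% and 4.08% in the same order). The median was -0.34 under STZ and -0.034 under vehicle. The STZ median was -0.13 under quantile normalization and -0.16 with the level trend removed. Slc27a1, a fatty acid transport protein with acyl-CoA synthetase activity, read 77.3 in KO STZ against 189.8 in WT STZ, and 103 in KO against 143 in WT under vehicle. KO STZ was the lowest and WT STZ the highest array. Cd36, the main fatty acid receptor of muscle, read 543 in KO STZ against 816 in WT STZ, and 684 in KO against 556 in WT under vehicle, with WT STZ highest, KO STZ lowest and a difference of -0.58, just short of 1.5-fold. Lpl, the lipase that frees fatty acids at the capillary wall, stood at 463 in KO STZ against 760.3 in WT STZ (-0.71), and its dimmer cluster gave -1.06. Slc25a20, the carnitine-acylcarnitine carrier, read 133 in KO STZ against 217 in WT STZ, and 125 in KO against 138 in WT under vehicle. Mlycd, which removes the malonyl-CoA that blocks carnitine entry, stood at -0.75 (-0.43 under vehicle). Cpt2, the inner membrane carnitine palmitoyltransferase, stood at -0.090 and Fabp3, the muscle fatty acid binding protein, at -0.12, both nearer 0 than the list median.

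In the beta-oxidation spiral 17 of 19 measured genes lay below 0, against 58.1% of all measured genes and 68.6% of those above level percentile 75. Of the 19, 3 were at least 1.5-fold lower (15.8%, against 2.81% and 4.08% in the same order). The median was -0.36 under STZ (-0.17 under quantile normalization and -0.19 with the level trend removed) and -0.15 under vehicle. Acadl, the long-chain acyl-CoA dehydrogenase, read 504 in KO STZ against 904 in WT STZ, and 569 in KO against 593 in WT under vehicle. The vehicle arrays were alike, WT STZ lay above them and KO STZ below. Acaa2, the thiolase, stood at 254 in KO STZ against 410.2 in WT STZ (-0.68), and Etfa, which carries electrons from the dehydrogenases, at 339.9 in KO STZ against 514 in WT STZ (-0.59). Acadm, the medium-chain enzyme and the brightest member, stood at -0.38, Hadha at -0.34 and Acadvl at -0.21. So the members differed in size but hardly in sign. Acad9 at 0.029 and Acad10 at 0.25 were above 0.

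Of 16 measured thioesterases and targets of the fat-sensing PPAR receptors, 2 were 1.5-fold lower (12.5%, against 2.81% of all measured genes) and 0 higher. The median was -0.16 (-0.079 under quantile normalization and -0.093 with the level trend removed). Acot2, which splits acyl-CoA in mitochondria and whose near-identical copy Acot1 may share probes, read 212 in KO STZ against 556 in WT STZ, and 309 in KO against 328 in WT under vehicle. The cluster of Acot1 itself stood at -0.067 under STZ and 0.16 under vehicle. Pdk4, the kinase that shuts pyruvate dehydrogenase when fat is burned, read 1066 in KO STZ against 1677 in WT STZ, and 1514 in KO against 1401 in WT under vehicle. Ucp3 stood at -0.53, Txnip at -0.56, Angptl4 at -0.38 and Plin2 at 0.23. None of 19 measured PGC-1, PPAR and ERR genes was 1.5-fold apart, a count too close to the 2.81% and 0.845% of all measured genes to say anything of the list. Their median was -0.056, which changed sign to 0.082 under quantile normalization and 0.071 with the level trend removed. Ppargc1a, the PGC-1 alpha coactivator, read 115 in KO STZ against 111 in WT STZ, and 187 in KO against 137 in WT under vehicle, and Ppara stood at -0.096. For lipid droplet genes, 2 of 16 were 1.5-fold lower (12.5%, against 2.81% of all measured genes). The median, -0.080, was 0.0065 under quantile normalization and -0.021 with the level trend removed. Plin5, a droplet coat protein of oxidative tissue, stood at 49.6 in KO STZ against 90.99 in WT STZ (-0.83, and -0.53 under vehicle). Pnpla2, the first lipase of droplet breakdown, stood at -0.45 under STZ and 0.34 under vehicle, and Hilpda at 0.50. None of 16 measured fatty acid and cholesterol synthesis genes was 1.5-fold apart, again too close to those shares to say anything of the list. Scd1 stood at 141 in KO STZ against 188 in WT STZ (-0.41), Srebf1 at -0.50 and Fasn at -0.21.

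Adipocyte markers overlap with these fat gene lists: Fabp4 is also an uptake gene, and Plin1 and Cidec are also droplet genes. All 5 measured markers lay below 0 in KO STZ, 2 of them (Fabp4 and Plin1) at least 1.5-fold, with a median of -0.48 (-0.41 under quantile normalization and -0.42 with the level trend removed) against 0.16 under vehicle. Their summed intensity was 877 in KO STZ against 1356 in WT STZ, and 1103 in KO against 1089 in WT under vehicle. Fabp4, the fat cell fatty acid binding protein that also marks capillary endothelium, made up most of it and stood at 763 in KO STZ against 1194 in WT STZ. Plin1, the fat cell droplet protein and the other droplet gene past 1.5-fold beside Plin5, stood at 13.4 in KO STZ against 22.7 in WT STZ. The markers in neither fat list, Adipoq (adiponectin) and Retn (resistin), stood at -0.43 and -0.41 under STZ and at 0.29 and 0.39 under vehicle. Lep, leptin, was below the level filter. The part of fat cells in the fat gene differences was not tested.

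Genes of the citric acid cycle lay below 0 in 16 of 18 cases, against 58.1% of all measured genes and 68.6% of those above level percentile 75. Their median of -0.21 shrank to -0.016 under quantile normalization and -0.046 with the level trend removed. Idh2, the mitochondrial NADP isocitrate dehydrogenase, stood apart at 616 in KO STZ against 1049.8 in WT STZ (-0.77, and 0.064 under vehicle), and Suclg2, a succinyl-CoA ligase subunit, at -0.57. Cs, citrate synthase, and Ogdh stood at -0.095 and 0.014. The 37 measured oxidative phosphorylation genes had a median of -0.15 that turned to 0.041 and 0.0095 under the same alternatives. Cox6a2, the muscle form of a cytochrome oxidase subunit, at -0.70 and Cox7b at -0.67 were the members past 1.5-fold, both lower, while Atp5a1 stood at -0.081 and Cox5a at 0.026. Of 25 glycolysis and glycogen genes 3 were 1.5-fold lower (12%, against 2.81% of all measured genes) and 0 higher. The median of -0.019 turned to 0.089 under quantile normalization and 0.11 with the level trend removed. Fbp2, the muscle fructose bisphosphatase, read 119 in KO STZ against 267 in WT STZ, and 140.4 in KO against 188 in WT under vehicle. Ldhb, the heart-type lactate dehydrogenase subunit, stood at 110.4 in KO STZ against 188 in WT STZ (-0.75). The abundant enzymes were level, with Pygm at -0.00085, Gapdh at 0.0089 and Pkm at 0.031. Hk2, a hexokinase, stood at 0.12 and Slc2a4, the insulin-regulated glucose transporter, at -0.14. Pyruvate dehydrogenase genes other than Pdk4 stayed within 1.5-fold, with Pdha1 at -0.26 and Dlat at 0.15.

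Slow fibre genes lay below 0 in 14 of 17 cases, against 58.1% of all measured genes and 68.6% of those above level percentile 75. Of the 17, 4 were at least 1.5-fold lower (23.5%, against 2.81% and 4.08% in the same order). The median was -0.39 (-0.24 under quantile normalization and -0.25 with the level trend removed). Under vehicle the median was -0.14. Tnni1, the slow troponin I, read 29.9 in KO STZ against 80.3 in WT STZ, and 35.2 in KO against 50.9 in WT under vehicle, and Tnnc1, the slow troponin C, 90.1 in KO STZ against 189 in WT STZ, and 117 in KO against 158 in WT under vehicle. For both the KO arrays lay below the WT arrays, KO STZ lowest and WT STZ highest. Tpm3, the slow tropomyosin, stood at 201 in KO STZ against 356 in WT STZ (-0.81), with -0.51 for its dimmer cluster. Sln, sarcolipin, a calcium pump inhibitor, was dim, at 6.65 in KO STZ against 11.9 in WT STZ (-0.59). Myh7, the slow myosin heavy chain, stood at -0.54, Tnnt1 at -0.39, Myl2 at -0.069 and Mb, myoglobin, at -0.18. None of 16 fast fibre genes was 1.5-fold apart, a count too close to the shares of all measured genes to say anything of the list. The fast fibre median of -0.039 turned to 0.12 under quantile normalization and 0.16 with the level trend removed. Myh4, the fastest myosin heavy chain, stood at 7291 in KO STZ against 7530.4 in WT STZ, Myh2 at 0.10, Myh1 at 0.46 and Myl1 at -0.50. 

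Immediate early genes answer within minutes to activity, growth factors or handling. They were lower in KO STZ in 8 of 25 cases at 1.5-fold (32%, against 2.81% of all measured genes) and higher in 0. The median was -0.40 (-0.33 under quantile normalization and -0.35 with the level trend removed) under STZ and -0.14 under vehicle. Egr1, a zinc-finger early factor, read 10.1 in KO STZ against 57.7 in WT STZ, and 14.7 in KO against 28.1 in WT under vehicle. KO STZ stood at 17.5% of WT STZ, and the KO arrays both lay below the WT arrays. Fos, a subunit of AP-1, read 15.8 in KO STZ against 27.2 in WT STZ, and 13.8 in KO against 28.1 in WT under vehicle, with the genotypes apart to a like extent under both treatments. Btg2, an antiproliferative early gene, read 24.6 in KO STZ against 51.6 in WT STZ, and 24.4 in KO against 28.1 in WT under vehicle. In it WT STZ alone stood high, as it did in Ccn1, a matricellular early gene, at 95.1 in KO STZ against 165 in WT STZ. Junb stood at -0.58, Nr4a1 at -0.11, Jun at 0.027 and Myc at 0.42. Of the other Kruppel-like and SP factors, 3 of 17 were 1.5-fold lower (17.6%, against 2.81% of all measured genes). All 3 were early genes too: Klf10 at 29.5 in KO STZ against 73.6 in WT STZ (-1.22), Klf4 at -0.96 and Klf6 at -0.86. The median of the 17 was -0.12 (-0.12 under quantile normalization and -0.12 with the level trend removed). Klf9, a bright glucocorticoid-induced member, stood at -0.10 and Klf3 at 0.46.

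Among 21 measured chaperones 4 were 1.5-fold lower (19.0%, against 2.81% of all measured genes) and 0 higher. The median was -0.15 (-0.032 under quantile normalization and -0.027 with the level trend removed). Hspa1b, an inducible 70-kDa chaperone, read 17.8 in KO STZ against 66.8 in WT STZ, and 54.9 in KO against 44.6 in WT under vehicle, and its near-identical neighbour Hspa1a, which may share probes, 20.7 in KO STZ against 50.2 in WT STZ, and 29.3 in KO against 46.03 in WT under vehicle. KO STZ was the lowest array for both. Dnajb1, a co-chaperone induced with them, stood at 11.03 in KO STZ against 28.1 in WT STZ (-1.11), and Hspb3, a small muscle chaperone, at -0.63, whereas the constitutive Hspa8 stood at -0.18 and the small chaperone Cryab at -0.15. Apold1 and Bcl6b, both known from endothelial cells, had the shape of Btg2. Apold1 read 11.1 in KO STZ against 46.03 in WT STZ, and 11.05 in KO against 12.1 in WT under vehicle, and Bcl6b 11.5 in KO STZ against 29.4 in WT STZ, and 10.6 in KO against 10.2 in WT under vehicle. In each, 3 arrays were alike and WT STZ alone stood high. Of 7 measured endothelial markers 5 lay above 0 and 2 below, whereas 58.1% of all measured genes lay below 0. Their median was 0.22 (0.32 under quantile normalization and 0.29 with the level trend removed). Cdh5 stood at 0.34, Kdr at 0.33, Pecam1 at -0.19 and Emcn at -0.33. The part of endothelial cell number in the Apold1 and Bcl6b differences was not tested. Bcl6b lies outside the rule for named genes and was chosen after its values were seen.

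**Figure D4:**
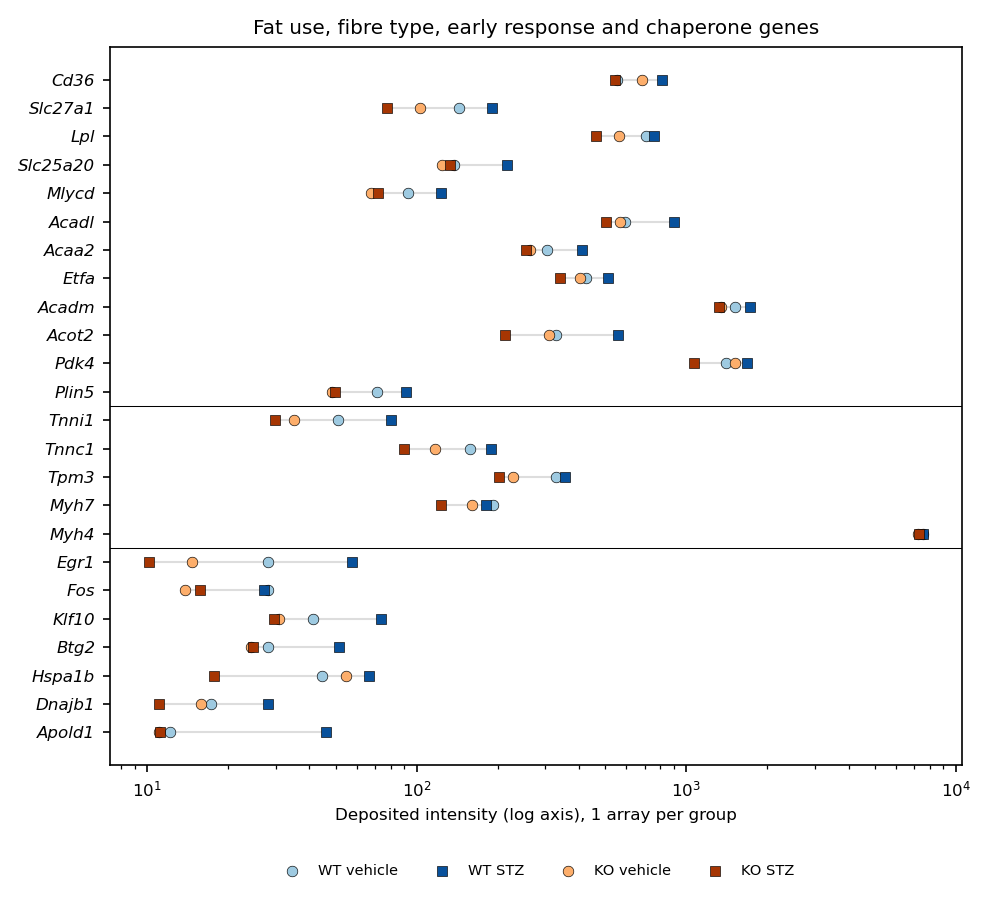
Deposited intensity on a log axis for fat use genes (top block), fibre type genes (middle block) and early response, chaperone and endothelial early genes (bottom block), 1 point per array; circles are vehicle, squares STZ, blue WT and orange KO. WT STZ is the rightmost point for all genes shown other than Myh7, Myh4 and Fos, and Myh4 differs little between the 4 arrays. Most genes shown are at least 1.5-fold lower in KO STZ, which favours this order. WT STZ was highest in 344 of all 372 such genes and in 4264 of 13258 measured genes.

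Collagen genes were higher in KO STZ. Of 24 measured collagens 8 were at least 1.5-fold higher (33.3%), 0 lower and 22 above 0. Among all measured genes 0.845% passed that fold on this side and 58.1% lay below 0. The collagen median was 0.34 under STZ (0.40 under quantile normalization and 0.39 with the level trend removed) and 0.28 under vehicle. Col1a1, a chain of the main fibrillar collagen, read 756 in KO STZ against 399 in WT STZ, and 721 in KO against 425 in WT under vehicle. Its partner Col1a2 stood at 435 in KO STZ against 257 in WT STZ (0.75, and 0.72 in a dimmer cluster), and Col3a1, the type III chain, at 457 in KO STZ against 268 in WT STZ. For each of these both KO arrays lay above both WT arrays, and the treatments were close within a genotype. Col5a2 stood at 0.67, and the microfibrillar Col6a1, Col6a2 and Col6a3 at 0.66, 0.61 and 0.66, although a dim cluster of Col6a1 gave 0.10. Col22a1, of muscle-tendon junctions, read 28.4 in KO STZ against 14.95 in WT STZ, and 21.7 in KO against 23.5 in WT under vehicle, a difference of 0.78 under STZ and -0.10 under vehicle. The basement membrane chains Col4a1 and Col4a2 stood at 0.51 and 0.39. Of 32 measured genes that process or decorate the matrix, 1 was 1.5-fold higher (3.125%), 0 lower and 22 above 0. Their median was 0.12 (0.23 under quantile normalization and 0.20 with the level trend removed). Lamc1, a laminin chain, stood at 264 in KO STZ against 156 in WT STZ, Fn1, fibronectin, at 0.46, Sparc, a collagen-binding protein, at 0.43 and Dcn, decorin, at -0.24. Thbs1, thrombospondin 1, stood at -0.35 under STZ and 1.01 under vehicle. Lox, which crosslinks collagen, stood at -0.30 and 0.47, and Tnmd, a tendon marker, at 0.015 and 0.55.

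Markers of cell types known to make collagen were read beside the collagens. Fibroblast markers had 1 of 7 above 0 and a median of -0.033 (0.074 under quantile normalization and 0.062 with the level trend removed), with Pdgfra at -0.069. Their summed intensity was 3353 in KO STZ against 3702 in WT STZ, and 3375 in KO against 3371 in WT under vehicle. Tendon markers had a median of 0.054 under STZ (0.26 under quantile normalization and 0.22 with the level trend removed) and 0.38 under vehicle, from Chad at 0.49 to Mkx at -0.096, and a summed intensity of 665 in KO STZ against 577 in WT STZ, and 673 in KO against 502 in WT under vehicle. The part of tendon in the collagen difference was not tested. Of the 19 TGF-beta genes, Sox4, a factor at a dim 10.3 in KO STZ against 4.62 in WT STZ, was 1.5-fold higher and Skil, an inhibitor of SMAD proteins, at -0.76 lower. Each made up 5.26% of the list, and Sox4 passed the level filter only through its KO values. Tgfb1 stood at -0.11, and the list median was -0.11 (-0.022 under quantile normalization and -0.042 with the level trend removed).

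The atrophy ubiquitin ligases and regulators, which drive muscle wasting, had 1 of 26 measured genes 1.5-fold lower (3.85%) and 0 higher. These counts are close to the 2.81% and 0.845% of all measured genes. The list median of -0.11 turned to 0.031 under quantile normalization and 0.019 with the level trend removed. Fbxo32, atrogin-1, read 427 in KO STZ against 696 in WT STZ, and 529.5 in KO against 542 in WT under vehicle; WT STZ was highest and KO STZ lowest. Trim63, MuRF1, read 345 in KO STZ against 400.0 in WT STZ, and 395 in KO against 303 in WT under vehicle, and Wwp1, a NEDD4-family ligase, 1182 in KO STZ against 1339 in WT STZ, and 1263 in KO against 1378 in WT under vehicle, so that the genotypes overlapped for Trim63 and were close for Wwp1. Of the FOXO factors that switch on such ligases, Foxo1 stood at 71.5 in KO STZ against 47.2 in WT STZ (0.56, but 0.029 in a dimmer cluster) and Foxo3 at 0.29. Autophagy and lysosome genes lay below 0 in 16 of 17 cases, against 58.1% of all measured genes and 68.6% of those above level percentile 75. Of the 17, 2 were at least 1.5-fold lower (11.8%, against 2.81% of all measured genes). The median was -0.23 (-0.064 under quantile normalization and -0.098 with the level trend removed). Gabarapl1, a FOXO-responsive autophagosome protein, read 53.3 in KO STZ against 93.6 in WT STZ, and 78.4 in KO against 74.4 in WT under vehicle, Lamp2, a lysosomal membrane protein, stood at -0.68 and Map1lc3b at -0.53. None of 28 proteasome genes was 1.5-fold apart, a count too close to the shares of all measured genes to say anything of the list. The proteasome median was -0.20 (-0.018 under quantile normalization and -0.036 with the level trend removed).

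None of 25 insulin and IGF signalling genes was past 1.5-fold, a count too close to the shares of all measured genes to say anything of the list. The list median of -0.11 turned to 0.059 under quantile normalization and 0.048 with the level trend removed. Irs2, an insulin receptor substrate, stood at -0.57 and Igf1 at 0.42. Glucocorticoid-responsive genes had 1 of 18 lower (5.56%, against 2.81% of all measured genes) and a median of -0.11, which turned to 0.074 and 0.058. The lower one was Errfi1, an inhibitor of EGF receptors, at 74.4 in KO STZ against 135 in WT STZ, while Fkbp5, a standard glucocorticoid target, stood at 0.0012 and Mt1 at -0.070. Antioxidant genes had 3 of 21 1.5-fold lower (14.3%, against 2.81% of all measured genes and 4.08% of those above level percentile 75) and a median of -0.22 (-0.094 under quantile normalization and -0.031 with the level trend removed). Nqo1, an NRF2 target, read 87.8 in KO STZ against 148 in WT STZ, and 89.1 in KO against 92.1 in WT under vehicle, and Cat, catalase, stood at 556 in KO STZ against 893 in WT STZ (-0.68). Gpx3, a secreted glutathione peroxidase, stood at -0.65. Clock genes had none past 1.5-fold in 16, with Dbp at -0.050 and Arntl at -0.21. The integrated stress response had none in 17 either, with Atf4, its main factor, at -0.28 and Nupr1 at 0.36 (0.98 under vehicle). Such counts are too close to the shares of all measured genes to say anything of either list. Of 22 interferon and antigen presentation genes, Ifit2 at 0.63 was the 1 past 1.5-fold (4.55%), at a dim 11.7 in KO STZ against 6.23 in WT STZ. Among all measured genes 0.845% were 1.5-fold higher.

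Among secreted factors and NAD genes 3 of 17 were 1.5-fold lower (17.6%) and 0 higher, against 2.81% and 0.845% of all measured genes. Nmrk2, a muscle kinase that makes NAD from nicotinamide riboside, read 104 in KO STZ against 208 in WT STZ, and 294 in KO against 256 in WT under vehicle; KO STZ alone stood low. Il15, a cytokine made by muscle, stood at a dim 7.80 in KO STZ against 17.9 in WT STZ, and Ostn is described above. Mstn, myostatin, stood at -0.39. Of 20 excitability and calcium genes, Micu3 and Kcnj2, an inward rectifier potassium channel at -0.67 (0.15 under vehicle), were 1.5-fold lower (10%). Ryr1, the calcium release channel, stood at 0.20 and Cacna1s, its voltage sensor, at -0.011. Denervation and junction genes held Sln alone past 1.5-fold in 16 (6.25%), with Chrna1, an acetylcholine receptor subunit, at -0.49. None of 12 myogenic regulators was, with Myog at -0.38 and Pax7 at -0.035. The counts of these last lists are too close to the shares of all measured genes to say anything of either.

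Small nucleolar RNA and ribosomal protein genes, classes picked by symbol, lay lower as well. Of 60 measured small nucleolar RNA genes 9 were 1.5-fold lower (15%) and 2 higher (3.33%), against 2.81% and 0.845% of all measured genes. The median was -0.30 (-0.16 under quantile normalization and -0.19 with the level trend removed) against 0.10 under vehicle. Snord58b, a box C/D guide RNA, read 23.9 in KO STZ against 89.8 in WT STZ, and 32.9 in KO against 30.2 in WT under vehicle, so WT STZ alone stood high, and Mir703, a microRNA gene, 35.4 in KO STZ against 109 in WT STZ, and 52.98 in KO against 61.5 in WT under vehicle. Of 63 cytosolic ribosomal protein genes 4 were lower (6.35%, against 4.08% of genes above level percentile 75) and 0 higher. The median was -0.24 (-0.10 under quantile normalization and -0.12 with the level trend removed). Rps13, a small-subunit protein, read 44.6 in KO STZ against 117 in WT STZ, and 60.4 in KO against 52.3 in WT under vehicle, with WT STZ far above the rest. Oaz1, the ornithine decarboxylase antizyme, read 161 in KO STZ against 367 in WT STZ, and 160.2 in KO against 179 in WT under vehicle, with the other 3 arrays alike. Of 110 measured microRNA genes 4 were 1.5-fold lower and 4 higher (3.64% each way). Their median was 0.082 (0.13 under quantile normalization and 0.12 with the level trend removed).

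The genes at least 2-fold higher in KO STZ numbered 7, several of them without a described function. Fut11, a fucosyltransferase, read 116 in KO STZ against 42.4 in WT STZ, and 76.03 in KO against 70.1 in WT under vehicle, but its dimmer cluster gave -0.027. Mir188 read 32.98 in KO STZ against 10.02 in WT STZ, and 29.5 in KO against 18.4 in WT under vehicle and Snord88c 19.6 in KO STZ against 6.55 in WT STZ, and 16.1 in KO against 9.15 in WT under vehicle, both higher on the KO arrays under both treatments. An array cluster for a microRNA gene reads its precursor region, not the mature form. The others were 1700011M02Rik at 1.26, Gm5781 at 1.14, Ifna15 at 1.03 and Vmn1r20, a vomeronasal receptor gene, at 1.66 from 3.49 to 18.99. The 3.49 was its value in WT STZ, under the filter intensity of 5.81. Chemosensory receptor genes are not known as muscle transcripts. Of 1443 on the array 79 passed the level filter. Among these 7 were 1.5-fold higher (8.86%, against 0.845% of all measured genes) and 5 lower (6.33%, against 2.81%). Both shares lay above those of all measured genes, and both directions occurred. Rab3c, a vesicle GTPase, stood at 36.3 in KO STZ against 17.2 in WT STZ, and its dimmer cluster at -0.056. Thy1, a surface glycoprotein, stood at 0.92 and Dhrsx at 0.83. Among the 20 lowest differences, Vamp7, a vesicle fusion protein, stood at 41.8 in KO STZ against 102 in WT STZ (-1.22). Gm26504 at -1.27, AI987944 at -1.25, Gm10335 at -1.25 and Vmn1r94, a vomeronasal receptor gene, at -1.35 lay between 6.83 and 17.4 in KO STZ.

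Of the other cell types, macrophage markers had a median of 0.061 (0.19 under quantile normalization and 0.17 with the level trend removed) and a summed intensity of 401 in KO STZ against 384 in WT STZ, and 339 in KO against 307 in WT under vehicle, with Adgre1 at -0.40 and C1qa at 0.43. Smooth muscle markers had one of -0.19, which was 0 under quantile normalization and -0.026 with the level trend removed, and satellite cell markers one of 0.057 (0.019 under quantile normalization and 0.018 with the level trend removed). Blood cell markers were mostly below the level filter, with Cd3e, Cd79a, S100a8 and S100a9 among them and Ptprc at 5.94 in KO STZ against 6.47 in WT STZ. Of the Schwann cell markers, Pmp22 stood at -0.11 and Mbp at 0.053. Of 45 lists with at least 5 measured genes, 37 had a median below 0 under STZ, as had all measured genes (-0.048). The median took the other sign in 13 of the 45 under quantile normalization and in 12 with the level trend removed. The lists with medians at least 0.3 from 0, those of both branched-chain amino acid steps, fat uptake, beta-oxidation, slow fibre, immediate early and adipocyte genes below 0 and of collagens above, kept their sign in all 7 alternatives. Choosing medians that far from 0 nearly fixed this, and every alternative uses the same arrays, so it lends no support.

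**Figure D5:**
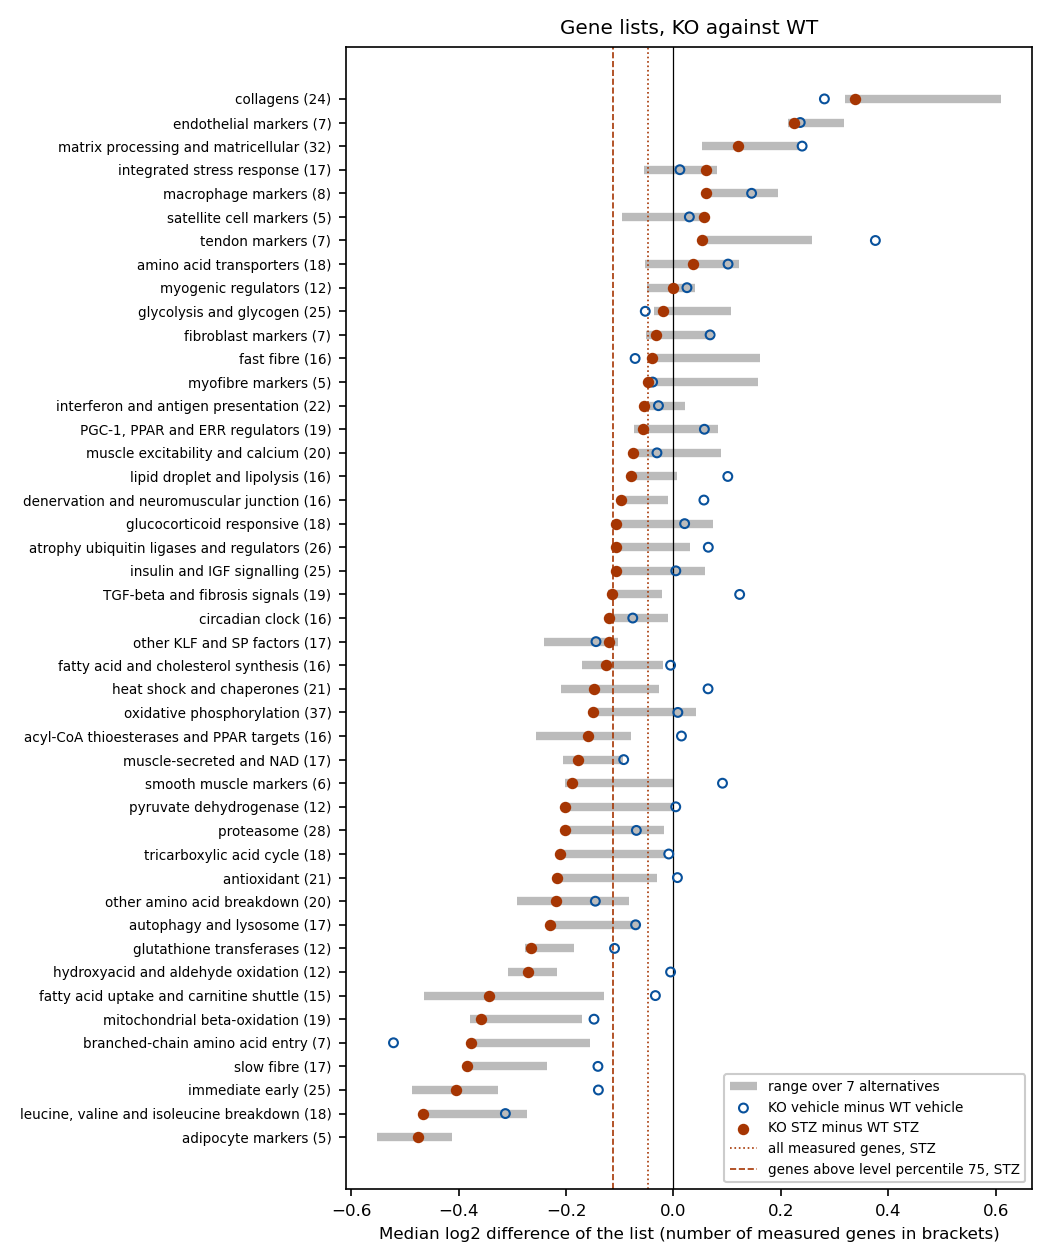
Median log2 difference of each list with at least 5 measured genes other than sex markers, for KO STZ minus WT STZ (filled) and KO vehicle minus WT vehicle (open), with the range of the STZ median over 7 alternatives as a grey bar; dotted and dashed lines mark the STZ medians of all measured genes (-0.048) and of genes above level percentile 75 (-0.11). Collagens lie furthest above 0 at 0.34 and adipocyte markers furthest below at -0.48, and many grey bars reach 0 from below.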

How the data were processed

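Intensity values, as deposited, are linear, with 1 column per array for 41345 transcript clusters. Per the labels' protocols, column-purified total RNA was turned into biotinylated cRNA from 4 ug and hybridised to Affymetrix arrays. For the authors' background correction, summary and scaling, the sources used here give nothing.

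GEO's platform annotation gave 1 symbol for 23521 clusters, several for 1814 and none for 16010; 23328 matched RefSeq by Entrez number and 0 symbols changed. Clusters with several symbols or none were left out.

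The log2 offset was percentile 25 of all values, and the level filter used the mean over the 4 arrays. Python 3.11.15, pandas 2.3.3 and statsmodels 0.14.6 were used. No test was run, since each group is 1 array. Genes were counted at 2-fold and 1.5-fold (1 and 0.58 on the log2 scale). Lists of 818 genes (719 measured) and the rules below were chosen with earlier results of these data known. Named were Klf15, the 20 largest differences each way, list members past 1.5-fold, the 3 brightest members and preset anchors of each list, and genes past 1.5-fold under both treatments. Members named outside the rule were chosen for contrast after their values were seen. Alternatives were quantile normalization, removal of a lowess trend (span 0.3), offsets at percentiles 10 and 50, no level filter, one at percentile 75, and the mean of all clusters. The counting was run on simulated data with changes well past 2-fold planted in genes above level percentile 75 and no level trend. Recovery at 2-fold was thus nearly fixed, so the run checks the code and lends no support to the counts.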

Additional observations from a re-analysis of the deposited data

Results flagged for a closer look

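In 3 genes (0.0226% of measured genes) KO differed from WT by at least 1.5-fold in opposite directions under the 2 treatments, a contrast between single arrays that was not tested. Nr4a3, an orphan nuclear receptor induced by activity, read 14.5 in KO STZ against 31.1 in WT STZ, and 33.8 in KO against 16.2 in WT under vehicle, a log2 difference of -0.93 under STZ and 0.91 under vehicle. Zfp108, a zinc-finger gene, read 13.5 in KO STZ against 6.65 in WT STZ, and 6.28 in KO against 12.2 in WT under vehicle, with 0.73 and -0.68 in the same order. Svop, a vesicle protein gene, read 22.8 in KO STZ against 13.9 in WT STZ, and 10.02 in KO against 19.1 in WT under vehicle, with 0.59 and -0.73, and its dimmer cluster gave -0.078 under STZ. Groups of 1 array allowed no search for outlying samples.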

How the results depend on the processing

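No paired analysis was possible because each group has 1 array, and for the same reason no array could be left out. Of 132 named genes past 1.5-fold, 104 stayed past it on the same side in every alternative that measured them and 0 changed sign. As these genes were chosen for passing 1.5-fold on the same arrays, a change of sign was hardly possible. Under quantile normalization 243 genes were 1.5-fold lower, and 13 were 1.5-fold higher under both treatments. With the offset at percentile 50, 71 were 1.5-fold higher and 4 so under both treatments. With the filter at percentile 75, which tests fewer genes, 4 genes were 2-fold higher, 54 1.5-fold higher and 5 so under both treatments; the median was -0.46 for fat uptake and 0.61 for collagens. Medians nearer 0 under quantile normalization and with the level trend removed were, in that order, -0.15 and -0.19 for branched-chain entry, -0.27 and -0.32 for leucine, valine and isoleucine breakdown, -0.13 and -0.16 for fat uptake, -0.17 and -0.19 for beta-oxidation and -0.24 and -0.25 for slow fibre genes. Fat uptake stood at -0.21 with the mean of all clusters. Medians that took the other sign were 0.041 and 0.0095 for oxidative phosphorylation, 0.031 and 0.019 for atrophy, 0.059 and 0.048 for insulin signalling and 0.074 and 0.058 for glucocorticoid-responsive genes. These alternatives remove the lower position of bright genes in KO STZ by construction; other causes were not tested. Signal near the offset limits dim genes.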
